A study of Mus musculus with 8 samples.

Results

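The genes described here are Lmo1, Lmo2, Lmo3, Lmo4, Ldb1 and Ldb2, 6 of the 32543 genes in the expression tables, measured in sorted amygdalar intercalated cells of mouse embryos. They are the nuclear LIM-only (LMO) genes and the LIM domain-binding (LDB) cofactor genes. The set was chosen from the knockout-against-control results of these same libraries together with family membership, so their values in that contrast are a description and carry no test of their own. All 6 passed the filter on low counts that left 14157 genes tested.

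Intercalated cells (ITCs) are clusters of GABAergic neurons around the basolateral amygdala. RNA was sequenced from GFP-positive cells sorted at E16.5 (counted in embryonic days), with 4 libraries from Tshz1GFP/+ embryos (control) and 4 from Tshz1GFP/RA embryos (knockout). Every library was made from tissue pooled over embryos of 1 genotype on an outbred background, and both genotypes carry the GFP allele used for the sort. The labels do not describe the RA allele further, and they do not say whether the pools came from separate litters, so p-values measure only the spread between pools. Titles carry the prefixes NX, NY, QT and RM, each shared by a control and a knockout library, and the labels do not say what a prefix marks. Tshz1, a zinc finger transcription factor, stood at 492 (NX), 240 (NY), 457 (QT) and 337 (RM) CPM in the control libraries. It stood at 121, 61.6, 78.1 and 55.9 CPM in the knockout libraries of the same prefixes, below every control library.

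An LMO protein consists of a pair of LIM zinc-binding domains and has no DNA-binding domain. It reaches DNA through partners, and it competes with LIM homeodomain factors for the LIM-binding end of an LDB protein, which dimerises and so joins complexes into larger assemblies. Single-stranded DNA-binding proteins (SSBPs) bind LDB proteins and protect them, while the ubiquitin ligase encoded by Rlim marks them for breakdown. In the forebrain, Lmo3 and Lmo4 are known from neurons of the cortex and amygdala, whereas Lmo2 is best known from blood and vessel development, where it bridges TAL1 and GATA factors.

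In the GENCODE annotation of GRCm38, all 6 are protein-coding genes. Lmo3 spans chr6:138362918-138581968 and Lmo4 spans chr3:144188530-144205220, both on the minus strand. Lmo1 lies at chr7:109138572-109175207 on the minus strand and Lmo2 at chr2:103957986-103981878 on the plus strand. Ldb1 lies at chr19:46031570-46045214 and Ldb2 at chr5:44472132-44799680, both on the minus strand. Exons of Pprc1 overlap those of Ldb1 on the opposite strand, and the sources used here do not say that strand was used in counting, so reads there cannot be assigned with certainty.

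The 250 bases upstream of the outermost RefSeq start (GRCm38.p6) are shown for Lmo3, the family member that differed most between the genotypes, and for Lmo4, the LMO gene with the highest mean level. The Lmo3 window is chr6:138581969-138582218 and the Lmo4 window is chr3:144205256-144205505. Both are printed 5′ to 3′ on the minus strand. Capitals mark the E-box CANNTG, the binding motif of basic helix-loop-helix factors, which is the same pattern on both strands.
Lmo3: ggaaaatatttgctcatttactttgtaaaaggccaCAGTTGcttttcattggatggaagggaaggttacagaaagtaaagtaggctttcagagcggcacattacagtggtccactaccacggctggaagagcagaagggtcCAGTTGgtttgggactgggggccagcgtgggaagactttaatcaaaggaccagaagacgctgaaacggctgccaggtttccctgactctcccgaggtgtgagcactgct
Lmo4: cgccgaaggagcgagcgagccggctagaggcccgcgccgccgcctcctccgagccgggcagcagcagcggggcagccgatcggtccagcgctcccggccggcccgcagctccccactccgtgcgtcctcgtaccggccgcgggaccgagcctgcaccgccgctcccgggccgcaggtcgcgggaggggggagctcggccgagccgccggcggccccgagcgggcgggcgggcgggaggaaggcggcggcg
The Lmo3 window held 2 E-boxes, 50% G or C and 6 CpG dinucleotides, beside a median of 52% and 6 CpG over all 27026 windows of the same length. It also held 2 copies of the homeodomain core TAAT, searched on both strands. The Lmo4 window held no E-box and no TAAT, with 82.4% G or C and 44 CpG, above the upper quartile of all windows (60.8% and 16 CpG). An E-box was present in 66.1% of all windows and TAAT in 55.4%. Both Lmo3 E-boxes read CAGTTG, a form found on either strand in 11.03% of all windows and searched only after the sequence had been seen. The only E-box in the Lmo1 window (not printed) reads CAGTTG too, and the Ldb1 window held no E-box. Of 8 annotated transcripts of each gene, 1 of Lmo3 and 3 of Lmo4 began within 100 bases of the window, and which starts these cells used was not measured.

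Lmo3 was higher in every knockout library than in any control library. In CPM (counts adjusted for library size and composition), the controls stood at 30.6 (NX), 59.9 (NY), 43.5 (QT) and 59.8 (RM). The knockouts stood at 93.3, 84.6, 104 and 139 CPM for the same prefixes. The lowest knockout, NY, lay above the highest control, also NY, so the genotypes did not overlap. Means were 48.4 ± 14.2 CPM in controls and 105 ± 24.1 CPM in knockouts (SD, n = 4 each), a 2.18-fold higher level. The fitted log2 fold change was 1.12 with a standard error of 0.26 and a 95% interval from 0.56 to 1.68.

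Lmo2 had the opposite pattern at a much lower level. Among controls, 7.01 (NX), 7.48 (NY), 7.88 (QT) and 7.996 (RM) CPM were measured, and knockout libraries held 3.81, 4.72, 5.78 and 2.66 CPM. The controls lay close together, and the highest knockout, QT, was below the lowest control, NX. Means were 7.59 ± 0.449 and 4.24 ± 1.33 CPM (SD, n = 4 each), 1.79-fold lower in the knockouts. The fitted log2 fold change was -0.83 with a standard error of 0.40, and its 95% interval ran from -1.71 to 0.04. These levels rest on between 16 and 113 counts per library.

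Across all tested genes, edgeR's quasi-likelihood test, adjusted by the Benjamini-Hochberg method, called 1 gene higher and 4 lower in the knockouts at an adjusted p under 0.05, or 0.0353% of genes. It called 0 of the 6 LMO and LDB genes. At an unadjusted p under 0.05 stood 512 of all genes, and Lmo3 alone of the 6. DESeq2 called 39 genes, among them Lmo3 (Benjamini-Hochberg adjusted p = 0.0278), while limma-voom called none of the 6. The adjusted p for Lmo3 under edgeR's quasi-likelihood test was 0.382. The genotypes did not overlap, with knockouts higher, in 1.13% of tested genes and, with knockouts lower, in 1.46%. Lmo3 is 1 of 160 genes in the former group and Lmo2 is 1 of 206 in the latter. Because the set was chosen with this contrast known, nothing is read from these counts. The 6 fitted changes had a median of -0.12, with 2 above and 4 below 0, beside a median of -0.01 over all tested genes.

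**Figure D1:**
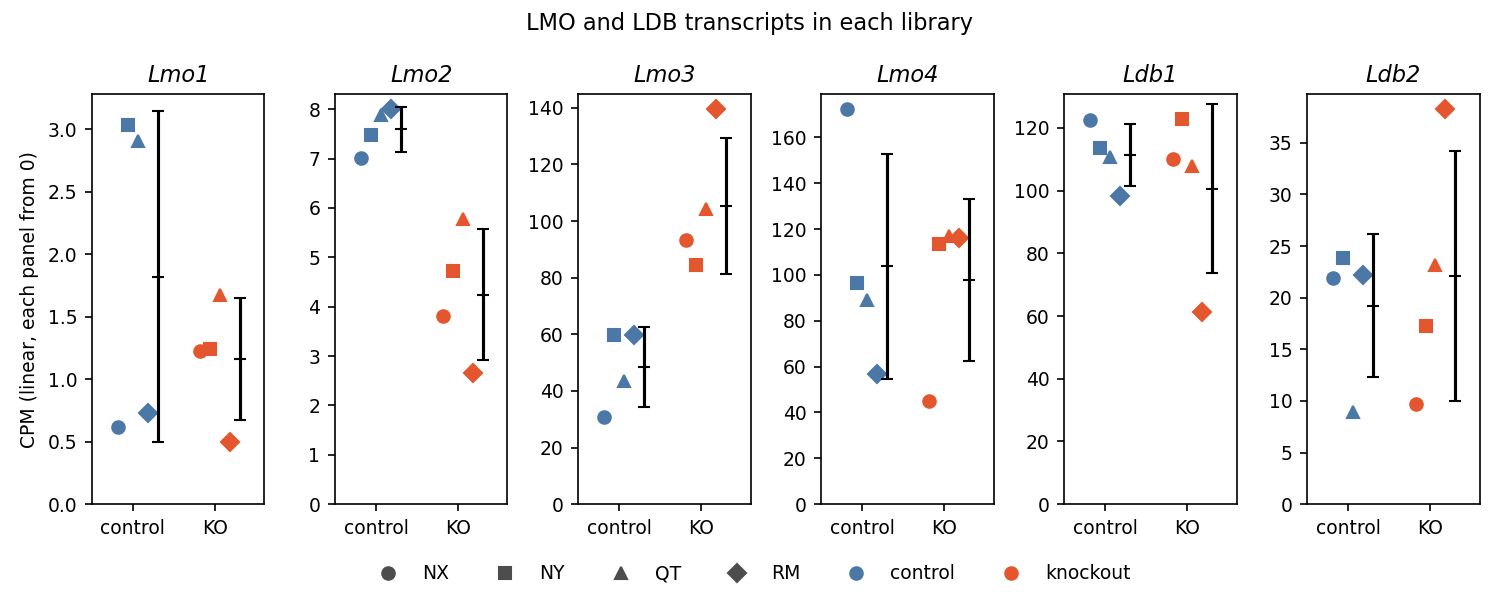
CPM of the 6 genes in each library on a linear axis from 0, with control libraries in blue, knockout (KO) libraries in red and a marker shape for each prefix. Black bars are the mean and SD of 4 libraries. Lmo3 in the knockouts (84.6 to 139 CPM) lies above all controls (30.6 to 59.9 CPM), Lmo2 lies below its controls, and the other 4 genes overlap.

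Lmo4 varied more among libraries of 1 genotype than between genotypes. The controls were at 173 (NX), 96.4 (NY), 89.1 (QT) and 56.9 (RM) CPM. Knockout libraries held 45.01, 114, 117 and 116 CPM. The NX libraries were the extremes of all 8, the control at the top and the knockout at the bottom, whereas the other 3 knockout libraries lay within a few CPM of one another. With the NX libraries the genotype means were 104 ± 49.0 and 97.9 ± 35.3 CPM (SD, n = 4 each), a log2 fold change of -0.09 with a 95% interval from -0.86 to 0.69. Without both NX libraries the log2 fold change was 0.52, without the control NX library it was 0.27, and without the knockout NX library it was 0.15. In prefixes NY, QT and RM the knockout library was the higher, by 0.24, 0.39 and 1.03 on the log2 scale, while in NX it was lower (-1.93).

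Lmo1 was close to the limit of detection. Its counts were 10 (NX), 41 (NY), 38 (QT) and 4 (RM) in controls and 18, 15, 11 and 2.83 in knockouts. The last value is under the floor of 3 counts used here. Means of 1.82 ± 1.33 and 1.16 ± 0.487 CPM (SD, n = 4 each) overlapped, and the 95% interval of the log2 fold change, from -2.27 to 0.96, admits a several-fold difference in one direction and a smaller one in the other.

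Ldb1, the widely expressed LIM domain-binding cofactor, was at nearly the same level in 7 of the 8 libraries. Controls held 122 (NX), 114 (NY), 111 (QT) and 98.3 (RM) CPM, and knockouts held 110, 123, 108 and 61.4 CPM. The knockout RM library was the single low value. The log2 fold change was -0.15 with a 95% interval from -0.63 to 0.34, and without the knockout RM library it was 0.04.

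Ldb2, the second cofactor gene, was at 21.9 (NX), 23.8 (NY), 8.95 (QT) and 22.2 (RM) CPM in controls. In knockouts it was at 9.67, 17.2, 23.1 and 38.3 CPM. A low library stood in each genotype, QT among controls and NX among knockouts, and the groups overlapped. The log2 fold change was 0.19 with a 95% interval from -0.72 to 1.10. Its sign depended on single libraries: it was -0.20 without the knockout RM library and 0.52 without both NX libraries.

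Leaving out libraries did not change the sign for Lmo3, whose log2 fold change ran from 0.96 without the control NX library to 1.34 without both NY libraries. Over 22 alternatives in all, which also changed the scaling, the filter, the test and the unit, Lmo3 was higher in the knockouts in 22 and Lmo2 lower in 22, with Lmo2 between -1.01 and -0.64. The genotypes did not overlap for Lmo3 or Lmo2, so leaving out libraries could hardly turn either sign. These counts of 22 for Lmo3 and Lmo2 therefore add no support and only describe the range. Lmo1 was also lower in 22, although its counts were low. Lmo4 was lower in 19 and higher in 3, Ldb1 lower in 21 and higher in 1, and Ldb2 higher in 17 and lower in 5.

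**Figure D2:**
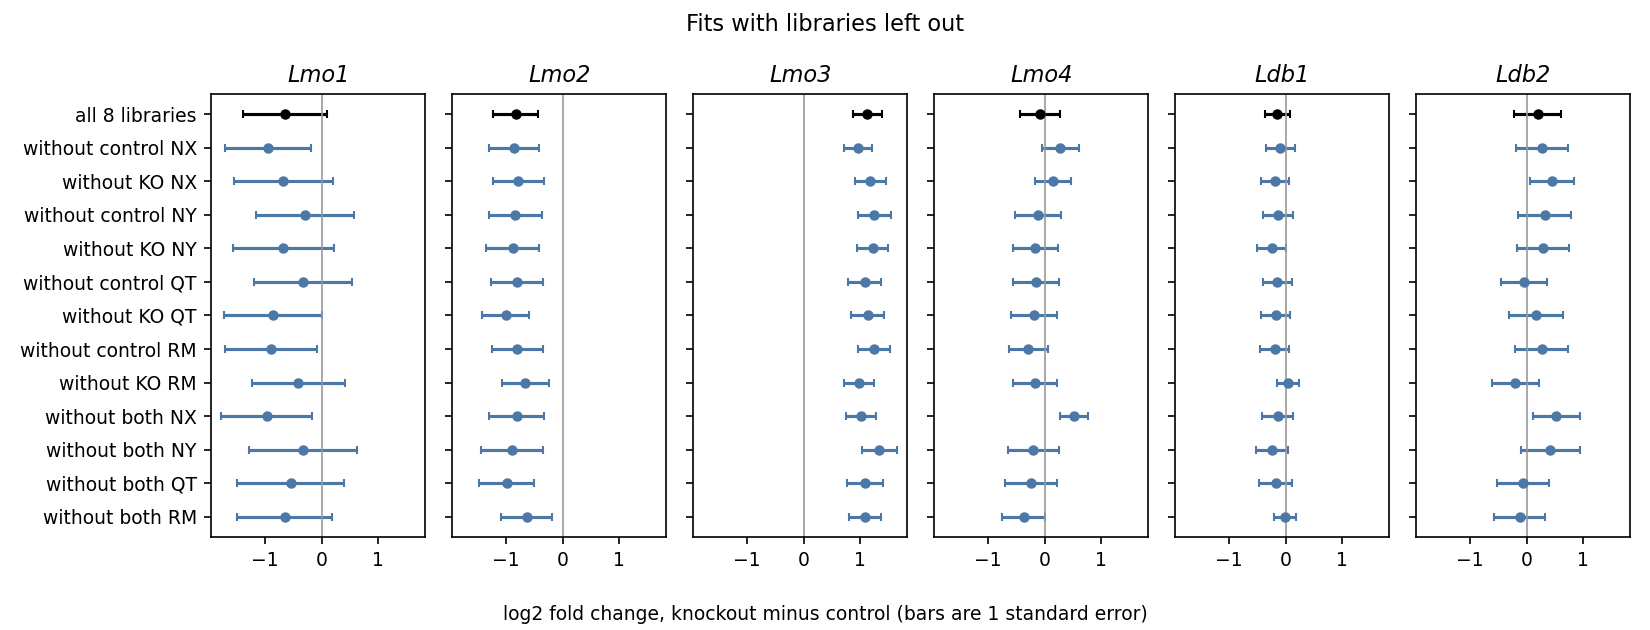
Log2 fold change of each gene, knockout minus control, with all 8 libraries (black) and with single libraries or both libraries of a prefix left out (blue); bars are 1 standard error. Lmo3 stays between 0.96 and 1.34, and Lmo4 moves to 0.52 without both NX libraries.

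Levels were compared between genes in TPM, a measure scaled to transcript length and library total. In controls, Ldb1 (171 ± 29.9 TPM) and Lmo4 (163 ± 97.7 TPM) were the most abundant and did not differ beyond their spread (SD, n = 4 each). Lmo3 followed at 41.5 ± 7.42 TPM, then Ldb2 at 14.9 ± 5.49, Lmo2 at 10.7 ± 1.22 and Lmo1 at 4.58 ± 3.34 TPM. Among control libraries the ranges of Lmo3 (31.4 to 48.7 TPM) and Lmo4 (71.5 to 301 TPM) were separate, while those of Ldb2 and Lmo2 overlapped. In knockouts Ldb1 was at 160 ± 70.0, Lmo4 at 138 ± 46.9 and Lmo3 at 87.0 ± 14.6 TPM. There the ranges of Lmo3 (71.5 to 103 TPM) and Lmo4 (87.3 to 189 TPM) met. Below them lay Ldb2 at 15.3 ± 4.80, Lmo2 at 6.07 ± 2.71 and Lmo1 at 3.09 ± 1.72 TPM. The genotypes did not overlap in TPM for Lmo3 and Lmo2 either. Lmo3 in the knockout RM library was the highest of all in CPM but only the third highest in TPM (78.2).

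The make-up of the LMO pool differed widely among libraries. Lmo3 held 9.07% (NX), 24.4% (NY), 19.9% (QT) and 35.2% (RM) of summed LMO TPM in controls. It held 51.2%, 29.3%, 32.1% and 40.8% in knockouts. Within each prefix the knockout share was the larger, but the groups overlapped, since the control RM library lay above 2 knockout libraries. The ratio of Lmo4 to Lmo3 in TPM was 9.60 in the control NX library and 0.850 in the knockout NX library, the only library in which Lmo3 exceeded Lmo4. Elsewhere it lay between 1.41 and 3.53.

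Summed LMO TPM overlapped between genotypes, from 128 to 346 in controls and from 192 to 298 in knockouts. Summed LDB TPM ran from 159 to 222 in controls and from 77.9 to 226 in knockouts, the lowest in the knockout RM library. LMO over LDB was 1.56 (NX), 1.25 (NY), 1.04 (QT) and 0.781 (RM) in controls and 0.890, 1.34, 1.39 and 2.46 in knockouts. The highest ratio, in the knockout RM library, coincided with that library's low Ldb1. Ldb1 made up between 75.5% and 96.2% of LDB TPM.

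**Figure D3:**
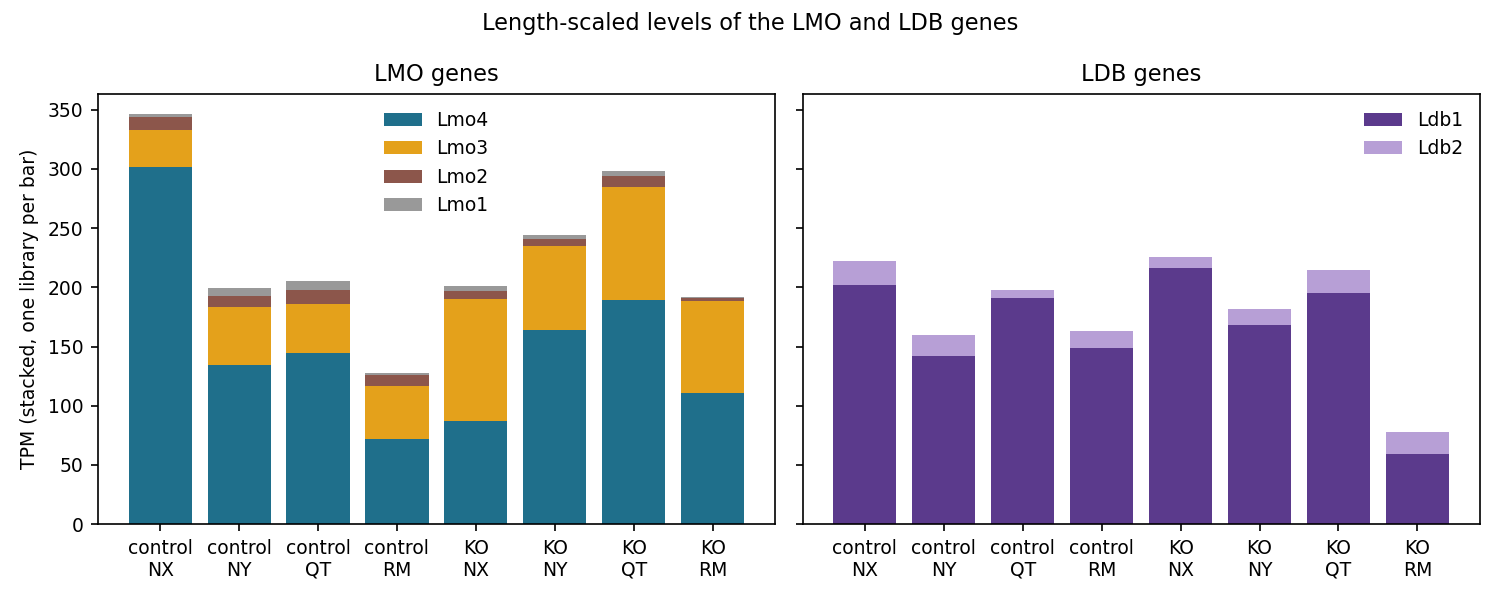
TPM of the LMO genes (left) and LDB genes (right), stacked, with 1 bar per library on a linear axis from 0. Lmo4 fills most of the control NX bar (Lmo3 holds 9.07%), Lmo3 holds 51.2% of the knockout NX bar, and the knockout RM library has the lowest LDB sum, 77.9 TPM.

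Mean transcript length, which shifts when a gene's isoforms are used in other proportions, was 2286 ± 28.8 bases for Lmo3 in controls and 2308 ± 27.1 in knockouts (SD, n = 4 each), with overlapping ranges. For Lmo4 it was 1442 ± 15.2 and 1443 ± 9.64 bases. Ldb1 varied most, from 1265 bases in the control RM library to 1576 in the control NY library, with means of 1430 ± 137 and 1422 ± 68.0 bases. The 4 Ldb1 transcript models counted were therefore estimated in proportions that varied among libraries, with genotype ranges that overlapped.

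The genes that work with LMO and LDB proteins were described from lists. Of 12 LIM homeodomain genes, which encode the DNA-binding competitors of LMO proteins for LDB, 5 passed the filter on low counts. edgeR's quasi-likelihood test called 0 of these 5, with 0 at an unadjusted p under 0.05 and 0 under DESeq2 or limma-voom. Fitted changes were above 0 for 3 and below 0 for 2, with a median log2 fold change of 0.06 beside -0.01 over all tested genes. Lhx6, a factor of interneurons from the medial ganglionic eminence, was at 31.6 ± 17.0 CPM in controls and 32.7 ± 13.6 in knockouts (SD, n = 4 each). Isl1, a factor of striatal projection neurons and other neurons, was at 4.33 ± 3.32 and 6.67 ± 5.28 CPM. Summed LIM homeodomain CPM was lowest in the control NX library at 10.4 and ran from 50.4 to 103 in the other 7. Lhx3, Isl2 and Lmx1b had no count in any library.

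Of 18 partner genes of LDB and LMO proteins, 12 passed the filter and edgeR's quasi-likelihood test called 0, with 0 at an unadjusted p under 0.05 and 0 under DESeq2 or limma-voom. Fitted changes were above 0 for 7 and below 0 for 5, with a median log2 fold change of 0.07. Ssbp3, which encodes an LDB-protecting protein, was at 150 ± 47.7 CPM in controls and 111 ± 30.0 in knockouts (SD, n = 4 each). It was lower in the knockout library of every prefix, with overlapping groups and a log2 fold change of -0.43 ± 0.27 (SE). Tcf4, which encodes an E protein that pairs with basic helix-loop-helix factors, was at 434 ± 186 and 577 ± 218 CPM, a log2 fold change of 0.41 ± 0.38 (SE). Rlim (142 ± 24.2 and 167 ± 22.5 CPM) and Tcf12, which encodes another E protein (143 ± 24.9 and 169 ± 40.8 CPM), were higher in the knockout library of every prefix in CPM, also with overlapping groups, at log2 fold changes of 0.23 ± 0.20 and 0.24 ± 0.22 (SE). The lowest fitted values on the list were those of Neurog2 (-1.14 ± 0.83, SE) and Nhlh1 (-0.85 ± 1.12, SE), both basic helix-loop-helix factor genes of young neurons. Without the control QT library these were 0.17 and 0.32, and without both QT libraries they were -0.35 and 0.37. With all 8 libraries, limma-voom gave 1.66 for Nhlh1. Rlim, Tcf12, Neurog2 and Nhlh1 were named after their values were seen. Ssbp2 (73.0 ± 17.9 and 84.6 ± 17.5 TPM) and Rlim (36.2 ± 9.83 and 41.8 ± 14.2 TPM) were also chosen after their values were seen, to set LDB regulators beside Ldb1 on the length-scaled measure. The 6 partners that did not pass were Tal1, Tal2, Lyl1, Gata1, Gata2 and Gata3, with 4 to 53 counts each over all 8 libraries. Among them are blood and vessel partners of Lmo2.

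Of 15 other LIM-domain genes outside the nuclear LMO family, such as those for FHL and related cytoskeletal proteins, 6 were tested and 0 called by edgeR's quasi-likelihood test, with 0 at an unadjusted p under 0.05. Fhl1, the most abundant, was at 62.7 ± 5.91 CPM in controls and 61.3 ± 8.90 in knockouts (SD, n = 4 each).

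**Figure D4:**
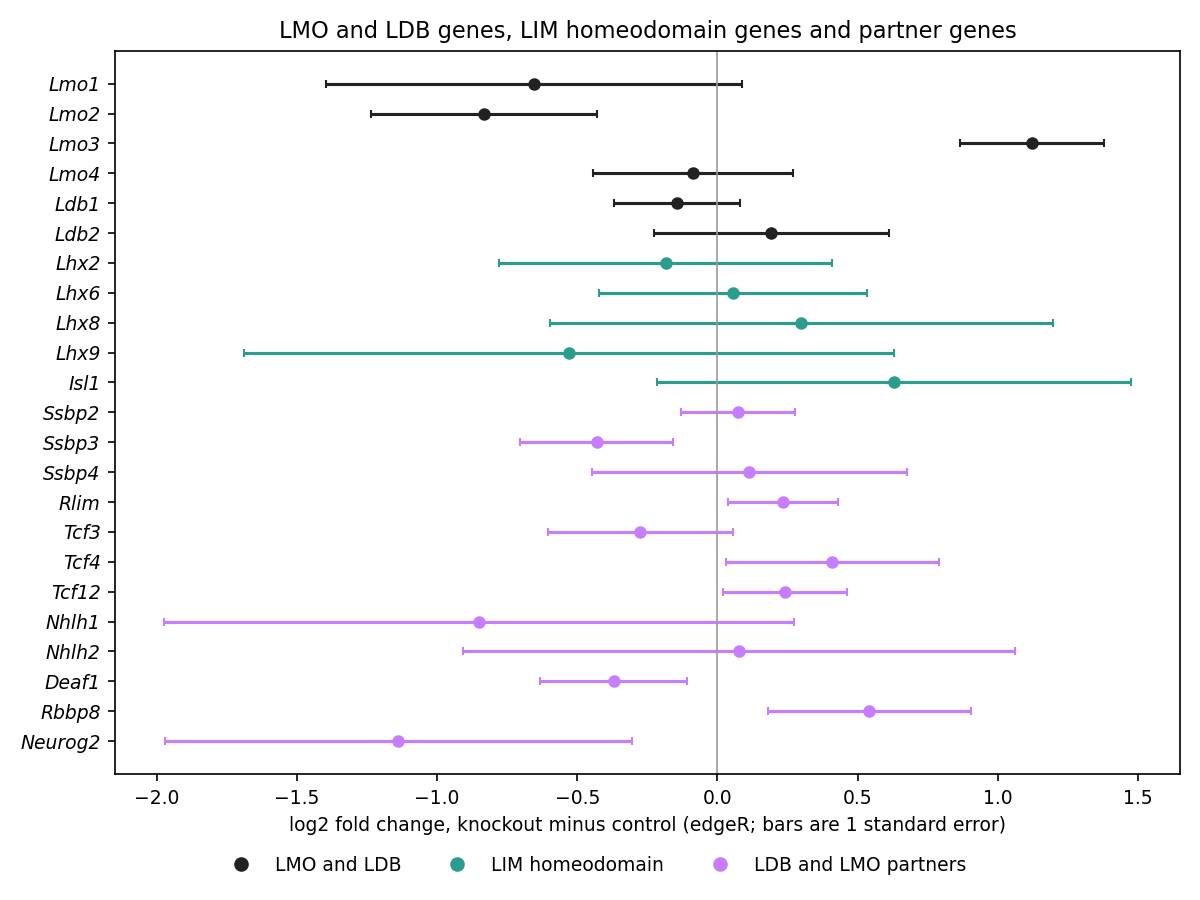
Log2 fold change, knockout minus control, of the LMO and LDB genes (black), the 5 tested LIM homeodomain genes (green) and the 12 tested partner genes (purple); bars are 1 standard error. Lmo3 at 1.12 lies farthest to the right and Neurog2 at -1.14 farthest to the left, followed by Nhlh1 at -0.85 and Lmo2 at -0.83.

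The libraries held between 5785612 and 14535867 expected counts each, and the floor of 3 counts was 0.186 to 0.545 CPM. All 12 ITC markers on a list were tested, with summed levels of 2148 to 3599 CPM in controls and 1814 to 2593 in knockouts. Their most abundant member, Meis2, was at 994 to 1786 CPM. Of the 12, 9 were fitted below 0 and 3 above, the median log2 fold change was -0.53, and 5 had an unadjusted p under 0.05. Of these 5, Tshz1, Erbb4, Drd1 and Prokr2 were lower in knockouts, and Foxp1 was higher, at a log2 fold change of 0.74. Drd1 was nonetheless higher in the knockout QT library (5.18 CPM) than in the control QT library (4.51 CPM). In TPM, Foxp1 was at 109 ± 19.7 in controls and 123 ± 51.1 in knockouts (SD). On that measure Foxp1 was lower in the knockout library of NX (100 against 109) and RM (68.2 against 80.6), and higher in that of NY and QT. edgeR's quasi-likelihood test called 1 of the 12, Tshz1 itself, and the genotypes did not overlap for Tshz1 and Prokr2, both lower in knockouts. Of all 14157 tested genes, 7158 were fitted below 0 and 512 had an unadjusted p under 0.05. The same test called 0.0353% of them, and 1.46% did not overlap with knockouts lower. Tshz1 (381 ± 115 and 79.1 ± 29.4 CPM, SD) is the gene that differs by design between the genotypes. It is part of every sum and count given for this list, so its fall is no separate result. Markers of other cells were also present, in amounts that differed among libraries. In bulk pools, fewer cells of a type and less RNA per cell cannot be told apart.

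Pallial glutamatergic markers, 11 of 11 tested, summed to 45.8 (NX), 433 (NY), 427 (QT) and 282 (RM) CPM in controls and 217, 342, 566 and 389 in knockouts. Of the 11, 7 were fitted above 0. Their lowest sum was in the control NX library, which also held the lowest Lmo3 and the highest Lmo4, and Tbr1, their most abundant gene, was at 8.37 CPM there. Without the control NX library the Lmo3 log2 fold change was 0.96. The part of these markers in the Lmo3 and Lmo4 values was not tested.

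Microglial, endothelial and erythroid markers were set beside Lmo2. Microglial markers summed to 4.71 to 132 CPM in controls and 9.53 to 59.0 in knockouts, and all 9 tested of 10 were fitted below 0. Endothelial markers summed to 1.67 to 47.9 and 1.50 to 8.98 CPM, with 2 of 10 tested and both fitted below 0. Erythroid markers summed to 1.22 to 320 and 0.913 to 163 CPM, with 4 of the 7 in the tables tested and all 4 fitted below 0. The control NX library held 7.01 CPM of Lmo2 with 1 of 10 endothelial markers counted, no count of Cdh5, and microglial markers at 4.71 CPM. The control NY library, with 47.9 CPM of endothelial, 97.5 of microglial and 320 of erythroid markers, held 7.48 CPM of Lmo2. The part of these markers in the Lmo2 values was not tested.

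The other marker lists overlapped between genotypes. GABAergic markers summed to 1672 to 2508 CPM in controls and 1849 to 2006 in knockouts. Markers of interneurons from the medial and caudal ganglionic eminences (MGE and CGE) summed to 359 to 686 and 366 to 543 CPM. Radial glia and progenitor markers, 11 of 12 tested, summed to 213 (NX), 1065 (NY), 1078 (QT) and 970 (RM) CPM in controls and 319, 1569, 1237 and 1703 in knockouts. The groups overlapped, but in CPM the sum was higher in the knockout library of every prefix, as Lmo3 was. In TPM this did not hold for the sum, which was 1746 in the control NY library and 1668 in the knockout NY library. The knockout RM library held both the highest sum and the highest Lmo3 in CPM. Other libraries did not follow that order. The knockout NX sum of 319 lay below the control NY, QT and RM sums, with Lmo3 at 93.3 CPM, above all controls. The knockout NY library held the next highest sum, 1569, and the lowest knockout Lmo3, 84.6 CPM. Of the 11, 6 were fitted above 0 and 5 below, with a median log2 fold change of 0.24, 0 called by edgeR's quasi-likelihood test and 1 at an unadjusted p under 0.05 (Ccnb1). The proliferation genes Mki67 (194 ± 132 and 376 ± 232 CPM) and Top2a (97.0 ± 69.5 and 215 ± 128 CPM), chosen after their values were seen, were higher in the knockout library of every prefix, with overlapping groups (SD, n = 4 each). Nes (43.9 ± 17.0 and 31.0 ± 12.5 CPM, SD) was lower in the knockout library of every prefix, also with overlapping groups. Vim, Hes5, Slc1a3 and Pax6 of the same list were fitted below 0 too. Without the knockout RM library the Lmo3 log2 fold change was 0.97. The part of these markers in the Lmo3 values was not tested.

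The genes most like each LMO or LDB gene over the 8 libraries were ranked by Pearson correlation of log2 CPM among 9356 genes. These are the highest of many and a description only, and the 8 points share depth, prefix and genotype. Closest to Lmo3 were Tmem245 (r = 0.971), Zfp9 (0.956) and AK077171 (0.953), and all 3 were without overlap between genotypes and higher in knockouts. Of all tested genes, 1.13% were so. Lmo3 itself did not overlap, so choosing genes by correlation with it favours such genes, and nothing is read from their separation. Closest to Lmo2 were Sstr2, a somatostatin receptor gene (r = 0.953), Bmf, which encodes a pro-apoptotic BH3-only protein (0.937), and Nosip (0.927). Sstr2 was at 34.0 ± 10.02 CPM in controls and 11.5 ± 6.35 in knockouts, and Bmf at 18.4 ± 5.22 and 4.29 ± 1.65 CPM (SD, n = 4 each). Lmo2 did not overlap between genotypes either, so the choice favours genes lower in knockouts and these falls add no separate result. Closest to Lmo4 were 1600002H07Rik (r = 0.944), Cox14 (0.923) and Mcts1 (0.918). Closest to Lmo1 were Mark4 (r = 0.972), Med16 (0.968) and Chd8 (0.934). Closest to Ldb1 were Ube2j2 (r = 0.986), Thoc5 (0.980) and Gm3893 (0.971). Closest to Ldb2 were Cntn1 (r = 0.958), Adrbk2 (0.950) and Lamtor5 (0.944).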

How the data were processed

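The submitters' processing notes name Trimmomatic 0.33, Bowtie2, RSEM 1.2.22 and the genome build mm10; the annotation release is not given in the sources used here, nor is the Bowtie2 version. The deposited values are RSEM expected counts, which are estimated fragment counts that need not be whole, and TPM, which the authors' tables scale to transcript length and library total. Per the file headers, mean transcript length per gene is also listed. cDNA was amplified without molecular identifiers, so floors cover counting error only.

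These counts were rounded and fitted for all genes with edgeR 4.0.16 in R 4.3.3 (filterByExpr, TMM, glmQLFit and glmQLFTest, genotype as the only term), with Benjamini-Hochberg adjustment over 14157 genes and a threshold of 0.05. Log2 CPM for correlations used a prior count of 2. Alternatives used DESeq2 1.42.0, limma 3.58.1, other filters and scalings, log2 of TPM plus 1 or 0.1, the title prefix as a term, and left-out libraries. The procedure was tested on simulated data with known changes, the same dispersion for every gene and no deviations shared within a prefix. That setting differs from these libraries, so the test does not show how well the fit performs on them. The series text speaks of triplicates, the labels hold 4 libraries per genotype, and all 8 were used.

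The genes, the lists and the tests were chosen with earlier results of these data known. Genes named are the 6 LMO and LDB genes, Tshz1, the smallest-p and most abundant tested member of the LIM homeodomain and partner lists, the most abundant tested member of each other list where printed, and, for each of the 6, the 3 most correlated genes whose average log2 CPM reached 3. List members without a count or below the filter are named as such. Ssbp2, Rlim, Tcf12, Neurog2, Nhlh1, Prokr2, Ccnb1, Mki67 and Top2a were named outside this rule, after their values were seen. So were Erbb4, Drd1, Foxp1, Nes, Vim, Hes5, Slc1a3 and Pax6. Gene positions are from GENCODE M21 and upstream windows from RefSeq (GRCm38.p6), in which 4 of the 6 genes were matched.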

Additional observations from a re-analysis of the deposited data

Results flagged for a closer look

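Values of 4 genes stood apart from the other 3 libraries of their genotype by Dixon's test, among 48 groups of 4 libraries checked. Chance alone sets apart about 1 in 20 groups. Lmo4 was at 45.01 CPM in the knockout NX library, with the next at 114 CPM and the highest at 117. Ldb2 was at 8.95 CPM in the control QT library, with the next at 21.9 and the highest at 23.8. Tbr1, a pallial marker, was at 8.37 CPM in the control NX library, with the next at 69.6. Hbb-bs, a globin gene, was at 173 CPM in the control NY library, with the next at 10.1.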

How the results depend on the processing

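Of the 5 genes called across all genes, counts moved to 11 at a threshold of 0.1, 9 without composition factors, 19 without a low-count filter, 39 with DESeq2, 2 with limma-voom, 2 with robust quasi-likelihood and 10 with log2 of TPM plus 1. Leaving out 1 library gave between 0 and 5 calls, and leaving out both libraries of a prefix gave 3 (NX), 0 (NY), 0 (QT) and 0 (RM). A fit with the prefixes entered as a replicate block called 28 genes; the pairing is not given by the labels, the correlations of deviations within a prefix were 0.385 (NX), 0.303 (NY), 0.0658 (QT) and 0.4496 (RM), and 7 of 8 libraries correlated best with their own prefix. Among the LMO and LDB genes the count of 0 moved to 1 with DESeq2 (Lmo3) and in no other alternative, and no call on the LIM homeodomain or partner list changed. The Lhx6 log2 fold change of 0.06 turned to -0.000997 without composition factors, -0.11 without both NX libraries and -0.12 without both NY libraries, and ran from -0.28 to 0.25 with single libraries left out. Isl1 turned to -0.17 without both QT libraries. Nhlh1 (-0.85) turned to 1.66 with limma-voom, 0.29 with log2 of TPM plus 0.1 and 0.37 without both QT libraries, and ran from -1.77 to 0.32 with single libraries left out. Neurog2 (-1.14) ran from -1.65 to 0.17 there. The cause of these moves was not tested. With 16 to 113 counts of Lmo2 and 2.83 to 41 of Lmo1 per library, depth limits both.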
